A study of Rattus norvegicus with 20 samples.

Results

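The genes described here carry cytokine signals through the receptor subunit gp130, or encode the inflammatory cytokines that act beside them. They were taken by symbol from the deposited count table, and all 10 of the genes sought (Il6, Lif, Il1b, Tnf, Il6st, Il6r, Lifr, Osmr, Stat3 and Socs3) were found among its 39747 genes. The table came from bulk RNA sequencing of dorsal root ganglia (DRG), the clusters of sensory neurons and glia beside the spinal cord. The rats were female wild-type Sprague-Dawley, aged 8 to 10 weeks by the study's account. The study gives this age ahead of acclimatization and the diets, and does not state the age at collection. Ligatures of chromic gut were tied loosely on the sciatic nerve of the left leg to make a chronic constriction injury (CCI), whereas the nerve of sham-operated rats (CT) was laid open and received no ligature.

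Rats ate a soy oil diet (SOD) or a diet with most of that oil replaced by fish oil rich in omega-3 fatty acids (FOD), starting 4 weeks before surgery. Left DRG of sham rats numbered 4 on SOD (SOD-CT) and 3 on FOD (FOD-CT), and those of injured rats 3 on SOD (SOD-CCI) and 4 on FOD (FOD-CCI). Right (contralateral) DRG of 3 injured rats per diet brought the total to 20 libraries from 14 rats. The labels give 1 week of recovery, and the study states that the sequenced DRG were collected 1 week after CCI. The public description and the study's methods continue the diets for 4 weeks after surgery. How this applies to these rats is not stated. The sham rats had their skin and muscle opened, so no group is an unoperated control, and the right DRG shares its animal with an injured nerve.

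Interleukin 6 (Il6), leukemia inhibitory factor (Lif), oncostatin M and ciliary neurotrophic factor form a cytokine family whose receptors share gp130, encoded by Il6st. Ligand binding brings gp130 together with a partner chain such as LIFR or OSMR, JAK kinases then phosphorylate the transcription factor STAT3, and STAT3 switches on genes that include its own inhibitor SOCS3. In sensory neurons this pathway is known for its response to axon damage. Interleukin 1 beta (Il1b) and tumor necrosis factor (Tnf) act through separate receptors and NF-kB, and are made largely by macrophages and other immune cells.

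Library totals ran from 22547190 to 54437581 counts, and values are given per 1000000 counts of that total (CPM). Of 10 genes that mark injured sensory neurons (such as Atf3, Sprr1a and Gap43), the summed level was 1343 to 3665 CPM in 6 of the 7 left CCI libraries, 335 to 439 CPM in the right DRG and 267 to 711 CPM in sham DRG. The library labelled FOD-CCI replicate 1 held 388 CPM, within the sham range and against its label. Spinal cord markers reached 2094 CPM in that library, 3446 CPM in the right DRG of the same rat and 2797 CPM in FOD-CT replicate 1, and stood at 8.12 to 67.2 CPM in the other 17 libraries. Sensory neuron markers stood at 6098 to 25379 CPM in 19 libraries and at 1950 CPM in the right DRG of the FOD-CCI replicate 1 rat, the library with 3446 CPM of spinal cord markers. The defining neuron genes Scn10a and Isl1 were each at 0 in 1 library. On FOD, all 8 sensory neuron markers were higher on the left than on the right (median log2 fold change 0.95). On SOD, 3 were higher and 5 lower (median −0.14). Both libraries of the FOD-CCI replicate 1 rat therefore bear on the side comparisons. Side results on the 10 genes that change in call or size with this rat are given with and without it. The rat was singled out by marker levels in these same data. Genes that follow the injured-neuron markers gain in injury difference when it is left out, so results without it are descriptive. Of the comparisons with sham, those of Il6, Il1b and Socs3 are also given without its left library. The wider pathway was fitted with all rats.

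Skeletal muscle markers differed between sham and injured DRG. They stood at 4.61 to 68484 CPM in sham DRG (median 1299), 6.25 to 131 CPM in left CCI DRG (median 8.97) and 5.7 to 5609 CPM in right DRG (median 148), and all 3 of those tested were lower in CCI than in sham DRG (median log2 fold change −8.53). The highest sham libraries were SOD-CT replicate 1 (68484 CPM), FOD-CT replicate 2 (13988 CPM) and SOD-CT replicate 4 (3712 CPM). SOD-CT replicate 1 also had the fewest sensory neuron markers of the left libraries (6098 CPM) and was the lowest sham library in Stat3, Lifr, Osmr, Il6r, Il6st and Il1b. Comparisons with sham were therefore also run without these 3 libraries, a choice made after seeing the data. The part of muscle RNA in them was not tested.

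The genes differed widely in level. On the FPKM scale, which divides by gene length, the medians over 20 libraries were 49.5 for Stat3, 33.0 for Il6st and 27.5 for Lifr. The next 3 genes stood at 4.18 (Socs3), 2.47 (Osmr) and 2.42 (Il6r), and Il1b stood at 0.835. The medians of Il6, Lif and Tnf were 0. Neighbours in this order overlapped in their ranges over libraries, for example Stat3 (18 to 91.9) with Il6st (22.4 to 57.7). Few counts were behind the ligands: Lif had 96 counts over all libraries and Tnf had 176, and Lif was at 0 in 15 libraries and Tnf in 11. Il6 was at 0 in 11 libraries and Il1b in 3.

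The sequence upstream of Il6 is shown because Il6 had counts in nearly all injured DRG and in none of the right DRG, and that of Osmr because it is the other of these genes whose window held a motif searched for. Both run from 250 bases before the annotated start to 50 after it, from RefSeq on the GRCr8 build, and both lie on the minus strand. The Il6 window is chr4:5894526-5894825 and the Osmr window is chr2:57688512-57688811. Capitals mark the motif matches. In Il6 these are the CRE letters TGACGTCA and the NF-kB match GGGATTTTCC, whose first bases lie 162 and 68 bases before the start. In Osmr they are the AP-1 match TGATTCA, 33 bases before the start.
Il6: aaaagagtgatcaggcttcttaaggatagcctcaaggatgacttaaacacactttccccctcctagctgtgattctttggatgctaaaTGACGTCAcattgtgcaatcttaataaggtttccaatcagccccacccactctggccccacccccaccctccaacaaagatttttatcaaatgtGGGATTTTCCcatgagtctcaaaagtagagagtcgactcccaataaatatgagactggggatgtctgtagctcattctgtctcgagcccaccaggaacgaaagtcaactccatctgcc
Osmr: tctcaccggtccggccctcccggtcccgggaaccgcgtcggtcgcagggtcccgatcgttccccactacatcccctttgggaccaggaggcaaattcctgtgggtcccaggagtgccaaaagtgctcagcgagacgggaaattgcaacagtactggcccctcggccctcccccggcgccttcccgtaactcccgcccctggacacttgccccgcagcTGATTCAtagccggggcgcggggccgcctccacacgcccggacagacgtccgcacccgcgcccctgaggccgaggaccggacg
The letters searched on both strands were TTCNNNGAA (STAT), GGGNNTTTCC (NF-kB), TGANTCA (AP-1) and TGACGTCA (CRE). Of 33469 promoter windows of this length, 8.87% held the STAT letters, 1.53% the NF-kB letters, 7.33% the AP-1 letters and 1.83% the CRE letters. Windows were given for 9 of the 10 genes (all but Lif), and the 7 others held none of these letters. A match describes the letters of a window only. The lack of a match likewise says nothing about letters outside the window or near another start of the gene.

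Among the ligands, Il6 was detected in 6 of 7 left CCI DRG and in none of the 6 right DRG. The left DRG of SOD-CCI replicates 1, 2 and 3 held 132, 195 and 254 counts (4.77, 6.57 and 8.77 CPM). Those of FOD-CCI replicates 1, 2, 3 and 4 held 0, 130, 386 and 233 counts (0, 4.37, 7.09 and 8 CPM). Every right DRG held 0 counts. The left libraries of both diets overlapped in range, apart from FOD-CCI replicate 1 at 0. In sham DRG, SOD-CT replicates 1, 2, 3 and 4 held 0, 12, 1 and 0 counts, and FOD-CT replicates 1, 2 and 3 held 0, 52 and 0. A count of 0 allowed up to 3 counts, which was 0.0695 to 0.133 CPM in the 11 libraries at 0, and this covers counting error only.

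Il6 lies below the filter on low counts used for the tests across all genes, so it was tested by exact permutation on log2(CPM + 0.5). Left CCI DRG were higher than sham DRG by 2.84 on this scale (exact permutation test within diets, two-sided, p = 0.00653, with 0.00163 the smallest p possible). Against the right DRG of the same rats the mean difference was 3.11 (exact test over sign changes, two-sided, p = 0.0625, with 0.0312 the smallest possible), with the left higher in 5 of 6 rats and both sides at 0 in FOD-CCI replicate 1. In those 5 rats, the left CPM was at least 44.3, 65.2 and 126-fold higher (SOD-CCI replicates 1, 2 and 3) and at least 38.4 and 59.9-fold higher (FOD-CCI replicates 2 and 3) than the 3-count limit per library on the right. These are 2 of 8 exact tests over the 4 ligands, and their p-values are unadjusted. Without FOD-CCI replicate 1, the difference from sham was 3.31 (exact permutation test, p = 0.00286). Without both DRG of that rat, the difference from the right was 3.73 (exact test over sign changes, p = 0.0625, the smallest possible with 5 rats). Without the filter, Il6 was called higher on the left at an adjusted p of 0.000656 (edgeR, mean of diets, rat as a block), where 1.66% of 27477 genes were called. The sham library with 52 counts, FOD-CT replicate 2, was one of the 3 with most muscle markers, and without those 3 the difference from sham was 3.04 (exact permutation test, p = 0.04).

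**Figure D1:**
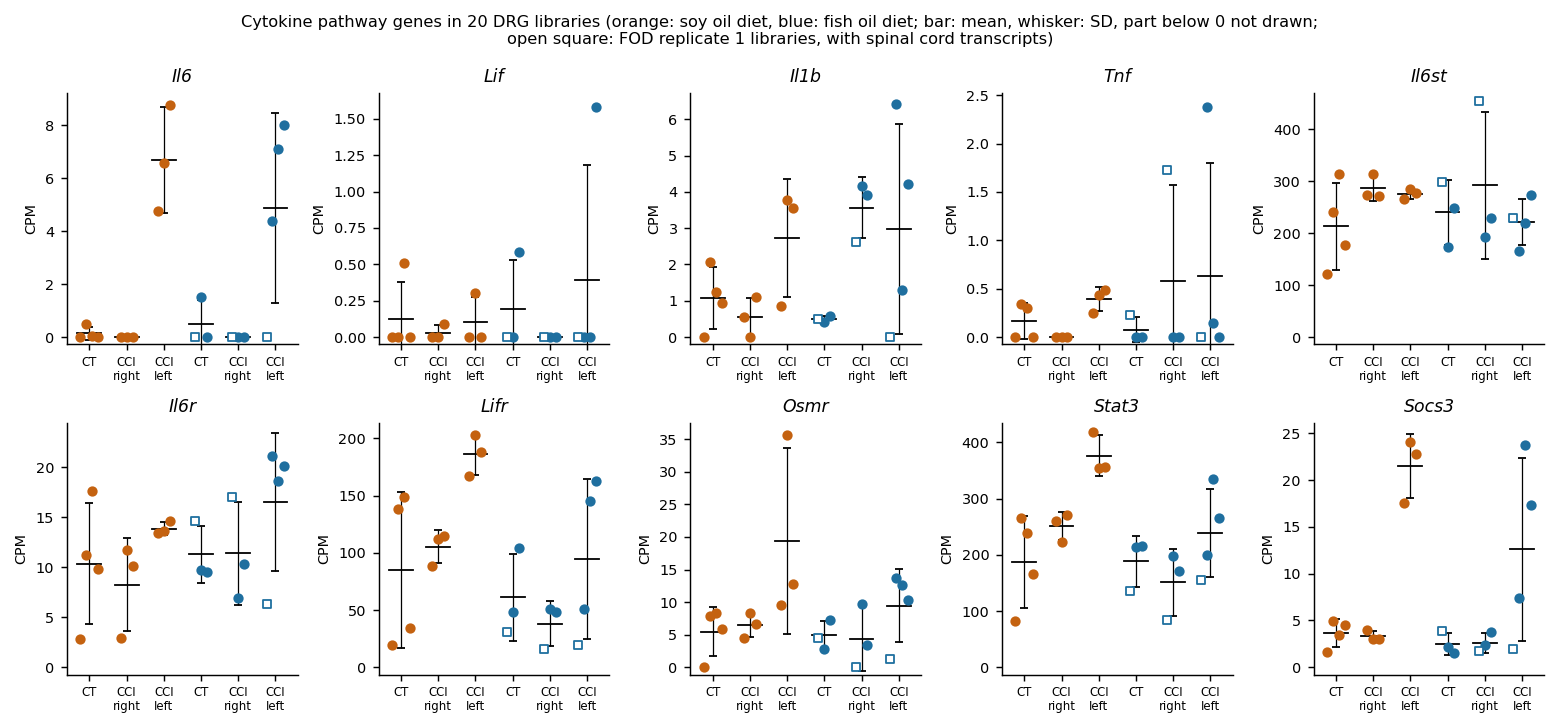
CPM of the 10 genes in 20 DRG libraries, with the groups along the horizontal axis (CT, sham left; CCI right; CCI left) for the soy oil diet in orange and the fish oil diet in blue. Points are libraries, black bars the group mean and whiskers the SD, and open squares are the replicate 1 libraries of the FOD groups. Il6 lies at 4.37 to 8.77 CPM in the left CCI libraries other than the open square and at 0 in every right library.

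Lif, a ligand of LIFR and gp130, was near the detection limit. It was seen in 5 libraries, at 15 counts in SOD-CT replicate 3, 22 in FOD-CT replicate 3, 9 in SOD-CCI replicate 2, 46 in FOD-CCI replicate 4 and 4 in the right DRG of SOD-CCI replicate 3. No group had it in more than 1 library. The difference of left CCI from sham DRG was 0.06 on the log2(CPM + 0.5) scale (exact permutation test, p = 1). In the 6 left CCI libraries with Il6 at 4.37 CPM or more, Lif was at 0 in 4 and at most 1.58 CPM. A difference of the size seen in Il6 was not seen in Lif. Whether a smaller one could be detected with so few counts was not tested.

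Il1b was present at low level in most libraries. Left CCI DRG held 0.868, 3.78 and 3.56 CPM in SOD-CCI replicates 1 to 3 and 0, 6.41, 1.3 and 4.22 CPM in FOD-CCI replicates 1 to 4. Sham DRG held 0 to 2.08 CPM, with a median of 0.583. The groups overlapped, and the difference of 1.16 on the log2(CPM + 0.5) scale gave p = 0.0784 (exact permutation test, two-sided). Without FOD-CCI replicate 1 it was 1.53 (exact p = 0.0143), without SOD-CCI replicate 1 it was 1.43 (exact p = 0.0457), and without the 3 sham libraries with most muscle markers it was 0.79 (exact p = 0.293). In the right DRG, Il1b stood at 0.538, 0 and 1.09 CPM in SOD-CCI replicates 1 to 3 and at 2.62, 4.17 and 3.91 CPM in FOD-CCI replicates 1 to 3. All 3 right values on FOD were above those on SOD, a comparison that was not tested. The left minus right difference over 6 rats was 0.25 (exact test over sign changes, p = 0.75), with the left higher in 4, and 0.82 without the FOD-CCI replicate 1 rat (exact p = 0.312).

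Tnf reached at most 71 counts in a library. Left CCI DRG held 7, 13 and 14 counts in SOD-CCI replicates 1 to 3 and 0, 71, 8 and 0 counts in FOD-CCI replicates 1 to 4. The right DRG held 0 counts except 39 in FOD-CCI replicate 1, and sham DRG held 0 to 9. Neither difference passed its test, at 0.51 against sham (p = 0.153, exact permutation test) and 0.54 against the right side (p = 0.438, exact test over sign changes). The right library with counts belongs to the rat that goes against its label. Without that rat the left was higher in 5 of 5 rats, by 1.07 on average (p = 0.0625, exact test over sign changes, the smallest possible with 5 rats). Without FOD-CCI replicate 2, which held 71 counts, the difference from the right side was 0.14 (exact p = 0.875) and that from sham 0.21 (exact p = 0.291).

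The 6 other genes were tested across all genes with edgeR, and a gene was called at an adjusted p of at most 0.1 with a fold change of at least 1.2. Comparing left with right DRG in 6 rats, with the rat as a block and averaged over diets, called 140 of 14549 genes (0.962%), and Socs3 was the call among these 6. Socs3 encodes the feedback inhibitor that binds gp130 and JAK kinases. It stood at 17.6, 24.1 and 22.8 CPM in the left DRG of SOD-CCI replicates 1, 2 and 3 and at 3.95, 3.06 and 3.06 CPM in their right DRG. On FOD it stood at 1.97, 7.39 and 23.8 CPM on the left of replicates 1, 2 and 3 and at 1.69, 2.39 and 3.79 CPM on the right. The left was higher in 6 of 6 rats, by 1.17-fold in FOD-CCI replicate 1 and by 3.09 to 7.90-fold in the others. In bulk tissue, a change in the number of cells of a type and a change in RNA per cell cannot be told apart.

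The log2 fold change of Socs3, left minus right, was 2.09 (SE 0.33, edgeR quasi-likelihood test, Benjamini-Hochberg adjusted p = 0.0399). It was 2.63 (SE 0.47, adjusted p = 0.134) on SOD and 1.56 (SE 0.48, adjusted p = 0.589) on FOD, and the difference between diets was −1.07 (SE 0.65, adjusted p = 0.997). The single diets gave 19 calls (0.131%, with 8.48% of genes at an unadjusted p under 0.05) and 2 calls (0.0137%, with 6.96%) among 14549 genes, and the difference between them gave 0 calls, with 2.91% of genes at an unadjusted p under 0.05. Without the FOD-CCI replicate 1 rat the mean was 2.39 (SE 0.26, adjusted p = 0.00149) and Socs3 was called on SOD (2.63, adjusted p = 0.00561) and on FOD (2.14, adjusted p = 0.078), where 3.14% and 0.914% of genes were called. The call was lost without SOD-CCI replicate 1 (2.22, adjusted p = 0.249), replicate 2 (2.02, adjusted p = 0.288) or replicate 3 (2.02, adjusted p = 0.259), and without FOD-CCI replicate 3 (1.81, adjusted p = 0.121), all by edgeR.

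Against sham DRG, Socs3 showed a difference of like size that did not pass the threshold. Sham values were 1.58, 4.98, 3.49 and 4.54 CPM in SOD-CT replicates 1 to 4 and 3.82, 2.16 and 1.54 CPM in FOD-CT replicates 1 to 3, and FOD-CCI replicate 4, which has no right library, held 17.3 CPM on the left. All left CCI libraries except FOD-CCI replicate 1 lay above every sham library. The log2 fold change, averaged over diets, was 2.41 (SE 0.45, edgeR adjusted p = 0.101), 2.44 (SE 0.61) on SOD and 2.39 (SE 0.65) on FOD. In this mean comparison edgeR called 0 of 14484 genes, and 11.5% of genes (1661) reached an unadjusted p under 0.05. On SOD and FOD alone the calls were also 0, with 13.8% and 4.52% of genes at that unadjusted level. For the mean, DESeq2 called Socs3 (2.4, adjusted p = 3.4e-05) among 3.34% of genes. Without FOD-CCI replicate 1, edgeR called it too (2.59, adjusted p = 0.00356), among 3.54% of genes, and also on SOD (2.44, adjusted p = 0.0722, 0.321% of genes) and on FOD (2.74, adjusted p = 0.049, 0.294% of genes). Without the 3 sham libraries with most muscle markers it was 2.35 (adjusted p = 0.251).

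**Figure D2:**
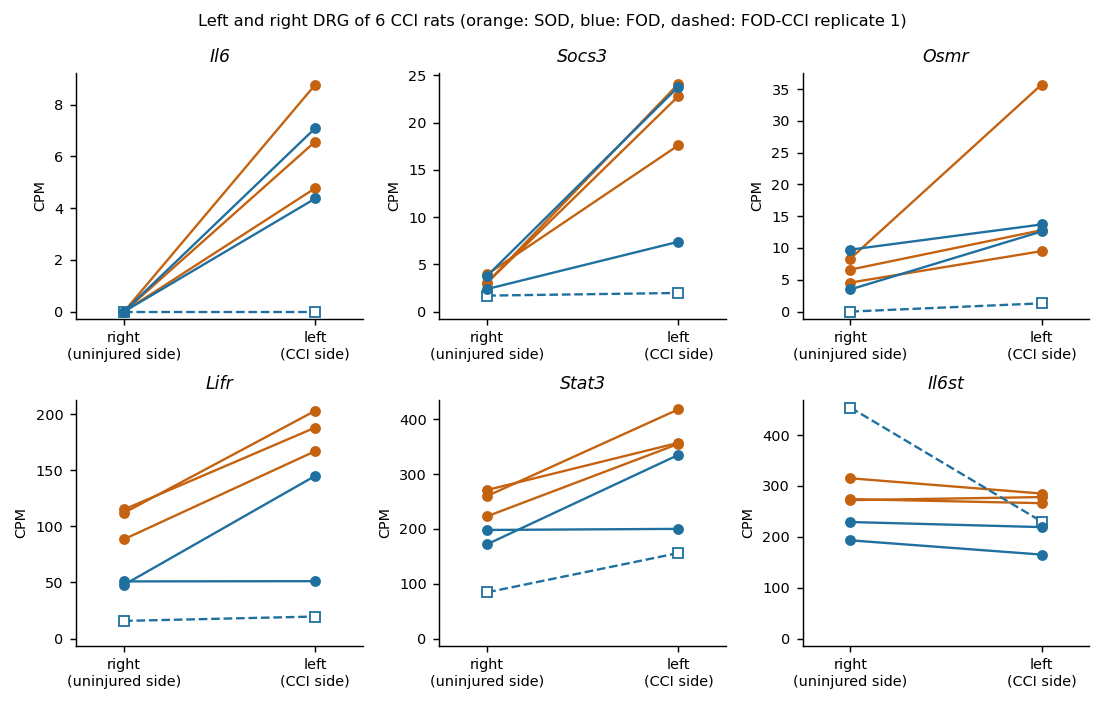
CPM in the right and left DRG of each of 6 CCI rats for Il6, Socs3, Osmr, Lifr, Stat3 and Il6st. Each line is a rat, orange for SOD, blue for FOD and dashed with open squares for FOD-CCI replicate 1. Il6 and Socs3 are higher on the left in 5 rats and nearly level in the dashed one, whereas the Il6st lines run level or downward.

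Stat3, the transcription factor that the pathway activates, was the most highly expressed of these genes per length. It stood at 418, 355 and 357 CPM in the left DRG of SOD-CCI replicates 1 to 3 and at 260, 223 and 271 CPM on the right. In FOD-CCI replicates 1 to 3 it stood at 156, 200 and 335 CPM on the left and at 84.3, 198 and 172 CPM on the right. The left was higher in 6 of 6 rats, though by 1.01-fold in FOD-CCI replicate 2. In FOD-CCI replicate 1, with a 1.85-fold difference, sensory neuron markers stood at 17129 CPM on the left and 1950 CPM on the right. The part of this imbalance in the 6 of 6 count was not tested, here or for Osmr and Lifr. The log2 fold change was 0.59 (SE 0.16, edgeR adjusted p = 0.199), which did not pass (0.51, SE 0.16, adjusted p = 0.116 without the FOD-CCI replicate 1 rat), and DESeq2 gave 0.58 (adjusted p = 0.0179), where it called 5.54% of genes. Against sham it was 0.63 (SE 0.22, edgeR adjusted p = 0.28). Sham values spanned 82.0 to 265 CPM with a median of 214, and FOD-CCI replicates 1 and 2 lay inside that span. FOD-CCI replicate 4, at 265 CPM, was level with the highest sham library.

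Among the receptors, Osmr and Lifr were higher on the injured side in 6 of 6 rats without passing the test, and Il6st was not. Osmr, the oncostatin M receptor chain, stood at 9.51, 35.7 and 12.8 CPM on the left of SOD-CCI replicates 1 to 3 and at 4.56, 8.33 and 6.60 CPM on the right. On FOD the left values were 1.3, 13.7 and 12.6 CPM and the right values 0, 9.74 and 3.48 CPM. The Osmr difference on FOD therefore includes a rat with 35 counts on the left and 0 on the right. Averaged over diets, its log2 fold change was 1.59 (SE 0.48, edgeR adjusted p = 0.248), and without the FOD-CCI replicate 1 rat it was 1.24 (SE 0.28, adjusted p = 0.0404). Against sham DRG the fold change was 1.40 (SE 0.70, edgeR adjusted p = 0.472), and all left CCI libraries but FOD-CCI replicate 1 (9.51 to 35.7 CPM) lay above the sham libraries (0 to 8.26 CPM).

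Lifr, the partner chain that binds Lif, stood at 167, 203 and 188 CPM on the left of SOD-CCI replicates 1 to 3 and at 88.5, 112 and 115 CPM on the right. On FOD the left values were 19.6, 51.1 and 145 CPM and the right values 15.7, 50.9 and 47.9 CPM, so that replicate 2 was level. The log2 fold change was 0.72 (SE 0.20, edgeR adjusted p = 0.199), and 0.79 (SE 0.21, adjusted p = 0.0667) without the FOD-CCI replicate 1 rat. Sham DRG ranged from 19.1 to 149 CPM, which overlapped the CCI range of 19.6 to 203 CPM. The left CCI against sham difference was 0.88 (SE 0.49, edgeR adjusted p = 0.519), and 0.47 (adjusted p = 0.843) without the 3 sham libraries with most muscle markers.

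Il6r encodes the chain that binds Il6 before gp130 joins. Its left values were 13.4, 13.6 and 14.6 CPM in SOD-CCI replicates 1 to 3 and 6.29, 21.1 and 18.6 CPM in FOD-CCI replicates 1 to 3. The right values were 2.94, 11.7 and 10.1 CPM on SOD and 17, 6.9 and 10.3 CPM on FOD. The left was higher in 5 rats and lower in FOD-CCI replicate 1. The mean log2 fold change was 0.65 (SE 0.43, edgeR adjusted p = 0.61), and without that rat it was 1.06 (SE 0.31, adjusted p = 0.0995). Against sham it was 0.47 (SE 0.31, edgeR adjusted p = 0.587), and 0.25 (adjusted p = 0.868) without the 3 sham libraries with most muscle markers.

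Il6st, the gp130 subunit itself, differed little between sides. It stood at 266, 285 and 278 CPM on the left of SOD-CCI replicates 1 to 3 and at 274, 315 and 272 CPM on the right. In FOD-CCI replicates 1 to 3 the left values were 230, 165 and 219 CPM and the right values 454, 193 and 229 CPM. The right was higher in 5 of 6 rats, by the most in FOD-CCI replicate 1, whose right library held the spinal cord markers at 3446 CPM, and their part in this value was not tested. The log2 fold change between sides was −0.25 (SE 0.15, edgeR adjusted p = 0.571), and −0.13 (SE 0.13, adjusted p = 0.631) without that rat. Against sham it was 0.09 (SE 0.16, adjusted p = 0.872), and −0.11 (adjusted p = 0.885) without the 3 sham libraries with most muscle markers.

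**Figure D3:**
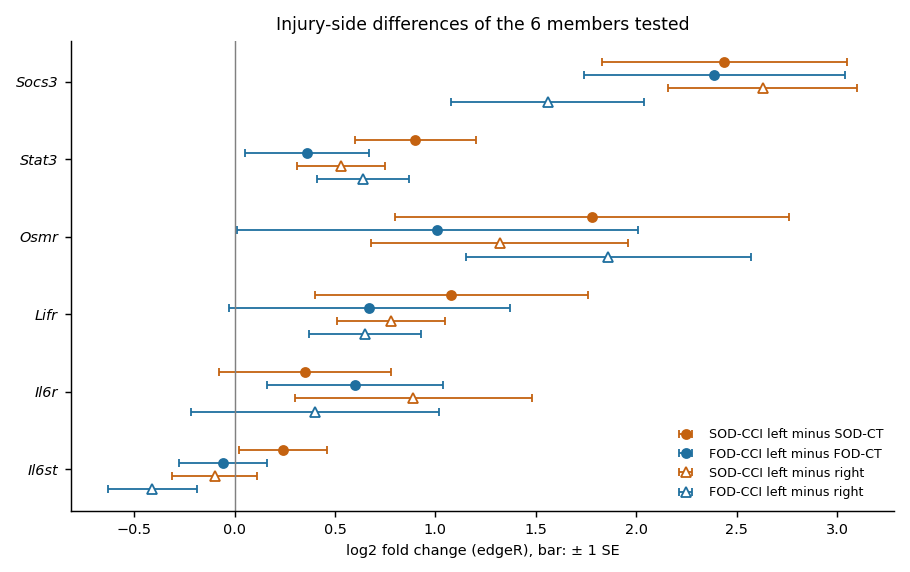
Log2 fold changes with bars of 1 SE (edgeR) for the 6 genes tested, with filled circles for left CCI against sham, open triangles for left against right, orange for SOD and blue for FOD. Socs3 lies between 1.56 and 2.63 in all 4 comparisons, and Il6st lies near 0.

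In all, 4 of the 10 genes (Lifr, Osmr, Stat3 and Socs3) had a higher CPM on the left in 6 of 6 rats, where 5.16% of all genes tested did. In the 5 rats other than FOD-CCI replicate 1, 7 of the 10 did (these 4 with Il6, Il6r and Tnf), where 11.5% of all genes tested did. Only 6 of the 10 are among the genes tested, and the 10 were chosen with earlier results of these data known. None of the 10 had all 7 left CCI libraries above all sham libraries, and 0.283% of all genes tested did. Leaving out FOD-CCI replicate 1, Il6, Osmr and Socs3 did, and 1.82% of all genes tested did. That library was singled out by its marker levels, among them low injured-neuron markers, so counts without it are descriptive. In the side comparison without that rat, edgeR called 4 genes (Socs3, Osmr, Lifr and Il6r), where 7.64% of 14992 genes were called.

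Socs3, Il6 and the injured-neuron markers were high in the same libraries. The left CCI libraries with 1343 to 3665 CPM of those markers held Socs3 at 7.39 to 24.1 CPM and Il6 at 4.37 to 8.77 CPM. The lowest of them, FOD-CCI replicate 2 (1343 CPM), also held the lowest Socs3 and Il6 of the 6. In FOD-CCI replicate 1, with 388 CPM, Socs3 was at 1.97 CPM and Il6 at 0. Over 20 libraries, the genes whose levels followed Socs3 most closely were Flrt3 (Pearson r 0.96), Jun (0.95), Gap43 (0.94), Gfra1 (0.94) and Fam150b (0.93). Jun and Gap43 are themselves injured-neuron markers on the list above. Stat3 was most like Capn5 (0.98) and Tnfrsf21 (0.97), followed by Nrip3, Mcam and Ehd3 (each 0.96). Osmr was most like Mob3a, Add2 and Ptgir (each 0.92), then Tyk2 and Capn5 (each 0.91). These correlations were chosen as the highest of 14435 genes, and all points share libraries and scaling. Osmr was at 0, and Stat3 lowest (82.0 and 84.3 CPM), in SOD-CT replicate 1 and the right DRG of FOD-CCI replicate 1. Those libraries also held the fewest sensory neuron markers (6098 and 1950 CPM). The part of neuron content in the correlations was not tested.

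**Figure D4:**
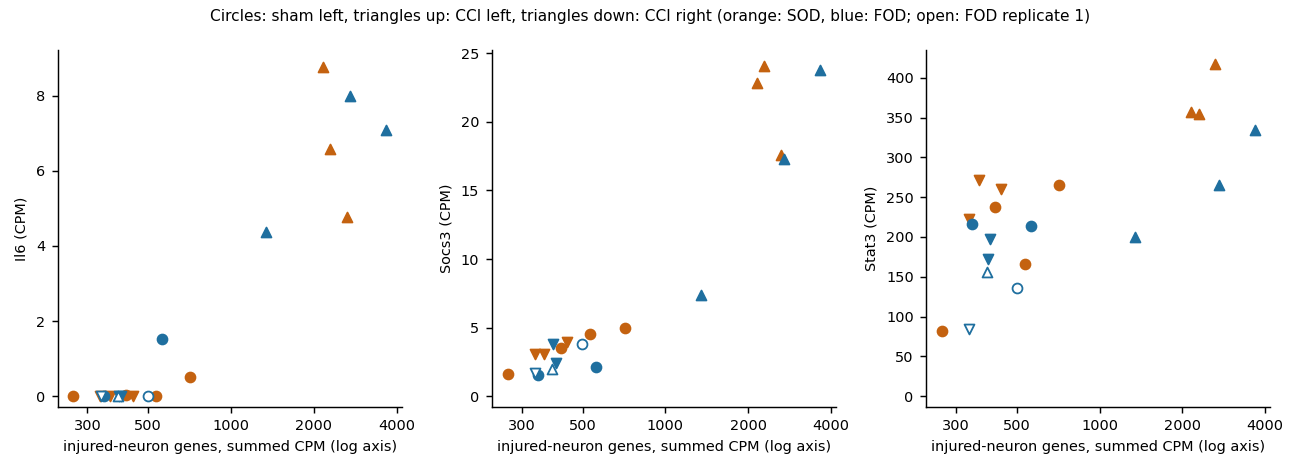
CPM of Il6, Socs3 and Stat3 against the summed CPM of 10 injured-neuron genes (log axis) in 20 libraries, with circles for sham left, upward triangles for CCI left and downward triangles for CCI right, orange for SOD, blue for FOD and open symbols for FOD replicate 1. Il6 and Socs3 are high in the 6 libraries at 1343 CPM and above, and the open upward triangle, FOD-CCI replicate 1, lies with the sham and right libraries.

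Macrophage markers also lay higher in left CCI DRG. The summed level of 8 markers (Aif1 and Csf1r among them) was 134 to 505 CPM in left CCI DRG (median 233), 34.4 to 230 CPM in sham DRG (median 119) and 22.6 to 260 CPM in right DRG (median 86.4). All 7 of those tested were higher on the left (median log2 fold change 1.42), and Aif1 was called (1.42, SE 0.21, edgeR adjusted p = 0.0342). Cd68, a defining macrophage marker, was at 0 in 1 library and at most 19.7 CPM. The 4 neutrophil markers summed to 2563 CPM in FOD-CCI replicate 2, 3.11 to 122 CPM in the other left CCI libraries (median of all 7, 54.2), 15.1 to 708 CPM in sham DRG (median 33.6) and 12.2 to 420 CPM in right DRG, where the highest was FOD-CCI replicate 1. FOD-CCI replicate 2 also held the highest Tnf (71 counts), Il1b (6.41 CPM) and Il1rn (11.3 CPM) of all libraries, and the right DRG of FOD-CCI replicate 1 held the second highest Tnf (39 counts). After injury, all 3 neutrophil markers tested were higher on FOD than on SOD at an unadjusted p under 0.05 (median log2 fold change 4.75), where 5.4% of all genes tested reached that level in either direction. That fold includes FOD-CCI replicate 2. The summed level was 54.2, 122 and 63.4 CPM in FOD-CCI replicates 1, 3 and 4. It was 3.11, 21.2 and 49.2 CPM in SOD-CCI replicates 1 to 3. In sham DRG the same 3 markers were lower on FOD (median −2.22), none at that unadjusted level. The part of macrophages and neutrophils in the cytokine values was not tested.

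No difference between the diets passed the test in the 6 genes. In left CCI DRG, FOD minus SOD, the log2 fold changes were −0.70 (SE 0.59) for Socs3, −0.59 (SE 0.30) for Stat3, −0.94 (SE 0.96) for Osmr and −0.91 (SE 0.68) for Lifr. Those of Il6r and Il6st were 0.32 (SE 0.44) and −0.25 (SE 0.22). The smallest of these edgeR adjusted p-values was 0.859, for Stat3. No gene of 14484 was called here by edgeR, with 5.4% of them (782) at an unadjusted p below 0.05. DESeq2 called none of the 10, and its share over all genes is not given here. Without FOD-CCI replicate 1, Socs3 was at −0.35, Stat3 at −0.43, Osmr at −0.57, Lifr at −0.57 and Il6r at 0.59. Group means of Il6 were 6.71 ± 2 CPM (SD, n = 3) in SOD-CCI and 4.86 ± 3.59 CPM (SD, n = 4) in FOD-CCI, or 6.48 ± 1.89 CPM (SD, n = 3) without FOD-CCI replicate 1.

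The diet difference in sham DRG and the dependence of the injury effect on diet were also small against their errors. In sham DRG, FOD minus SOD was −0.65 (SE 0.61) for Socs3 and −0.05 (SE 0.31) for Stat3, with adjusted p-values of 0.965 and 0.993 (edgeR). The injury effect on FOD minus that on SOD was −0.05 (SE 0.86) for Socs3, −0.54 (SE 0.43) for Stat3 and −0.77 (SE 1.37) for Osmr. That of Osmr was −0.40 without FOD-CCI replicate 1, −0.01 to −1.08 on leaving out each library in turn (−0.01 without SOD-CCI replicate 2) and −2.14 (SE 1.5) with the replicate number as a block. Both comparisons called 0 genes with edgeR, with 3.39% (sham) and 5.01% (difference) of genes at an unadjusted p under 0.05. With standard errors of this size, the data do not show that the diets act alike. Right DRG of CCI rats differed from sham DRG by −0.04 (SE 0.37) in Socs3, 0.03 (SE 0.25) in Stat3 and 0.33 (SE 0.22) in Il6st, with adjusted p-values of 1 (edgeR, 0 genes called and 2.98% at an unadjusted p under 0.05). Osmr did not pass the filter in that comparison.

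The wider pathway was followed in 63 genes listed by role, of which 62 were found (Lta was not). Between sides, 47 were tested, 40 were higher and 7 lower on the left (53.3% of all genes tested were higher), and 2 were called. The median log2 fold change was 0.43, against 0.03 over all genes. The called genes were Timp1, a metalloproteinase inhibitor and STAT3 target (0.85, SE 0.15, edgeR adjusted p = 0.0538), and Tnfrsf1a, a TNF receptor (0.83, SE 0.17, adjusted p = 0.1, at the threshold). At an unadjusted p under 0.05, 12 were higher and 1 lower, while 11.6% of all genes tested were at that level in either direction. Against sham DRG, 48 were tested, 39 were higher and 9 lower (48.8% of all genes tested were higher), none was called by edgeR, and 11 were higher and 2 lower at an unadjusted p under 0.05. The median was 0.27, against −0.01 over all genes. The list was chosen with earlier results of these data known, so these shares are descriptive and do not test the list.

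Timp1 stood at 132, 102 and 104 CPM on the left of SOD-CCI replicates 1 to 3 and at 72.3, 66.2 and 49.8 CPM on the right. On FOD, replicates 1 to 3 held 31.2, 123 and 139 CPM on the left and 23.6, 60.9 and 59.7 CPM on the right, and replicate 4 held 177 CPM on the left. Tnfrsf1a followed the same order, at 79.7, 77.3 and 79.2 CPM on the left against 31.5, 43.8 and 43.8 CPM on the right on SOD, and at 30.3, 78.0 and 83.4 CPM against 29.9, 46.4 and 34.1 CPM on FOD. In both genes, the left value of FOD-CCI replicate 1 was the lowest of the left CCI libraries.

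Serpina3n, an acute-phase protease inhibitor and STAT3 target, had the largest difference from sham on the list. It stood at 78.8, 90.8 and 93.4 CPM in left SOD-CCI DRG and at 1.97, 37.1, 116 and 130 CPM in FOD-CCI replicates 1 to 4. Sham DRG held 0 to 3.49 CPM and right DRG 0 to 0.825 CPM. The log2 fold change against sham was 5.92 (SE 0.92, edgeR adjusted p = 0.101), just outside the threshold, and the gene did not pass the filter between sides. Junb, another target, differed by 0.69 between sides (SE 0.15, edgeR adjusted p = 0.114).

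The other roles held no call. Tyk2, a JAK kinase, differed by 0.90 between sides (SE 0.24, edgeR adjusted p = 0.186) and Stat5b by 0.45 (SE 0.17). Jak2 and Jak1 differed from sham by 0.54 (SE 0.22) and 0.46 (SE 0.22). All 6 JAK and STAT genes listed had a positive fold change between sides, 3 of them at an unadjusted p under 0.05. Cish, a SOCS family inhibitor, differed by 0.88 between sides (SE 0.30) and 0.92 from sham (SE 0.35), Ptpn2, a phosphatase, by 0.55 between sides (SE 0.23) and Socs2 by 0.56 from sham (SE 0.32). Among gp130 ligands, Ctf1 differed between sides by −0.46 (SE 0.33). Cntf was at 85.1 to 445 CPM in every library, whereas Osm, the ligand of OSMR, reached at most 0.944 CPM and was at 0 in 10 libraries.

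Il11ra1, a receptor of the same family, lay lower on the injured side (−0.62, SE 0.18, edgeR adjusted p = 0.235) and in CCI against sham DRG (−0.54, SE 0.16, adjusted p = 0.195). It stood at 43.2, 45.8 and 45.3 CPM on the left and 82.0, 59.2 and 46.4 CPM on the right of SOD-CCI replicates 1 to 3, and at 61.8, 53.5 and 37.3 CPM against 82.8, 77.4 and 94.9 CPM on FOD. The left was lower in each of these rats, by little in SOD-CCI replicate 3. Il31ra, the receptor for interleukin 31, differed by 0.60 between sides (SE 0.68) and 0.29 from sham (SE 0.47).

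On the interleukin 1 arm, Il1rn, the receptor antagonist, differed by 1.54 from sham (SE 0.45, edgeR adjusted p = 0.193) and 2.14 between sides (SE 1.11). Myd88, the adaptor of interleukin 1 receptors, differed by 1.01 from sham (SE 0.30, adjusted p = 0.197) and 0.86 between sides (SE 0.23, adjusted p = 0.186). Il1r1, the receptor of Il1b, differed by 1.16 from sham (SE 0.52), and Il33, a family ligand, by 0.31 (SE 0.27). On the TNF arm, Tnfrsf1b differed by 2.09 between sides (SE 0.95), and Tnfrsf1a and Adam17, the protease that releases TNF, by 0.74 (SE 0.22) and 0.27 (SE 0.15) from sham.

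NF-kB subunits differed little. Nfkb1 and Relb differed between sides by 0.41 (SE 0.16) and −0.44 (SE 0.24), and Rela and Nfkb2 from sham by 0.27 (SE 0.15) and −0.28 (SE 0.21). None of these passed (edgeR adjusted p = 0.369 or more). Tgfb1 differed by 0.56 from sham (SE 0.35) and 0.94 between sides (SE 0.65). Il10, an anti-inflammatory cytokine, had 0 counts in all 20 libraries.

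**Figure D5:**
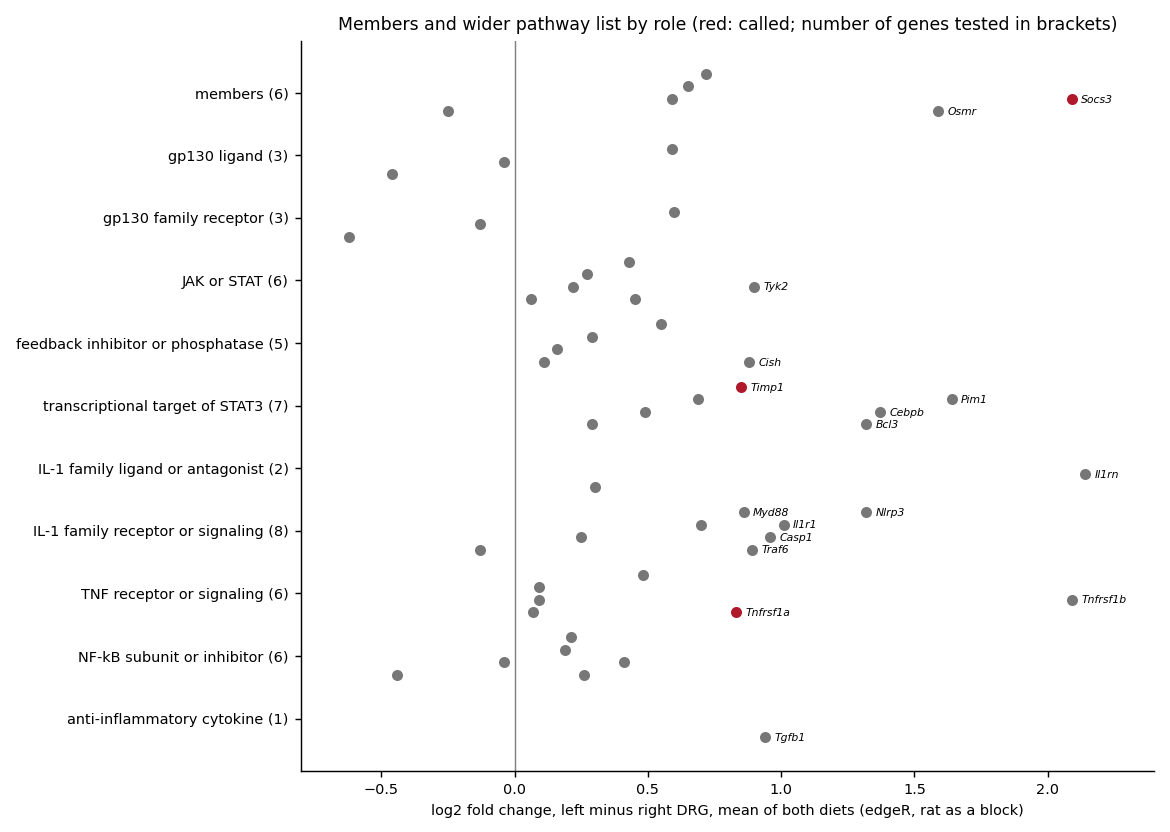
Log2 fold change, left minus right DRG averaged over diets, for the 6 genes tested and for the wider list by role, with the number tested in brackets and called genes in red. Socs3 (2.09), Timp1 (0.85) and Tnfrsf1a (0.83) are the called genes, and most other points lie to the right of 0 without passing the test.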

How the data were processed

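Poly-A selected RNA of 20 DRG was sequenced by the authors, who used fastp for trimming, HISAT2 for alignment and featureCounts 1.5.0-p3 for counting fragments per gene, per the labels. The deposited counts are whole numbers, neither scaled nor pooled. FPKM, which the authors also deposited, divides by gene length and served here for levels between genes only. The build of the genome, strandedness and the handling of reads with several alignments are not given in the sources used here. The members and gene lists were chosen with earlier results of these data known.

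CPM was each count per 1000000 counts of its library. A gene entered a fit if 90% or more of its libraries held 10 counts or more, and was tested with edgeR 4.0.16 (TMM, quasi-likelihood, R 4.3.3) and Benjamini-Hochberg adjustment over all genes tested. One fit took the 14 left libraries (14484 genes), another the left and right DRG of 6 rats with the rat as a block (14549 genes), and another right against sham DRG (14007 genes). Scripts were tested on simulated data. The 4 ligands did not pass the filter and were tested exactly with a pseudocount of 0.5, which understates folds at low values. Alternatives were DESeq2 1.42.0 (also its size factors), no filter, filterByExpr, limma 3.58.1, other pseudocounts and leaving out libraries. Leaving out the 3 sham libraries with over 3000 CPM of muscle markers was added after seeing the data.

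Left and right DRG share an animal, and their deviations from group means correlated in all 6 rats (r 0.11 to 0.43, median 0.15). Libraries that share a number across groups come from different rats (r −0.27 to 0.43, 19 pairs), though FOD-CT and FOD-CCI libraries of one number deviated together (r 0.43, 0.24 and 0.19), so fits with that number as a block were also run. Of 24 pairs of libraries within groups, none agreed within sampling noise (chi-square per gene at least 25.6). Each group has 3 or 4 rats, and p-values of comparisons between groups of rats measure the spread between rats. Those of the side comparisons measure how the left minus right difference varies over the 6 rats. Named list genes are those called and, per role, the 2 with the smallest p in the mean injury and mean side comparisons, except 1 gene that is not reported here. Symbols with 2 rows (Atf3, Pecam1) were read from the first. Promoters came from RefSeq (GRCr8).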

Additional observations from a re-analysis of the deposited data

Results flagged for a closer look

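In groups of 4, a library far from the other 3 was looked for in 20 sets of values (10 genes in 2 groups), and 4 were found, all in genes with few counts. Chance flags about 1 in 20 sets of continuous values, a rate that cannot be read against these sets with libraries tied at 0. Where 3 of 4 libraries are at 0, as in both sets of Lif, any count in the fourth meets the rule. Il6 stood at 0.51 CPM in SOD-CT replicate 2 (12 counts), with the next library at 0.0339 CPM. Lif stood at 0.508 CPM in SOD-CT replicate 3 (15 counts) and at 1.58 CPM in FOD-CCI replicate 4 (46 counts), with every other library of those groups at 0. Tnf stood at 2.38 CPM in FOD-CCI replicate 2 (71 counts), with the next library at 0.147 CPM.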

How the results depend on the processing

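Counts of called genes among the 10 (0 by edgeR in every comparison but the side mean, with 1) changed as follows. The share of all genes called under the same setting is given where at least 1 of the 10 was called. A count of 0 without its share is not a result about the 10 genes. DESeq2 gave 1 in the injury comparison on SOD (4.72% of genes), on FOD (0.183%) and in their mean (3.34%), 1 between sides on SOD (3.31%), 2 on FOD (1.81%) and 4 in the side mean (5.54%, or 790 genes). edgeR with DESeq2 size factors gave 1 in the injury mean (0.166%). Without a filter the count was 1 in the injury mean (0.795%), 2 between sides on SOD (0.801%), 1 on FOD (0.222%) and 4 in the side mean (1.66%). With filterByExpr it was 2 between sides on SOD (0.426%) and 2 in the side mean (1.23%). Without the rat as a block, which ignores the pairing of sides, the side mean gave 0. Leaving out replicate 1 of the FOD groups gave 1 in the injury comparison on SOD (0.592%) and in the mean (3.12%), 1 between sides on SOD (3.14%) and on FOD (0.914%), and 4 in the side mean (7.64%). Leaving out a library gave 0 to 1 for the injury comparisons on SOD (1 where 0.321% of genes were called), on FOD (0.294%) and in their mean (0.213% to 3.54%) and for the sides on SOD (0.371% to 3.14%) and on FOD (0.914%), and 0 to 4 for the side mean. The cause was not tested.

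The log2 fold changes of Socs3, Stat3, Osmr, Lifr and Il6r in the injury and side means kept their sign under every alternative run. Small diet and right-side differences did not. Under the replicate block these changed sign: Il6r in the diet by injury difference (−0.14), Osmr in diet without injury (0.74, and 0.64 with limma) and Socs3 in right against sham DRG (0.04, and 0.10 with limma). Without the rat as a block, Lifr (0.14, also 0.14 with limma) and Osmr (−0.45) changed sign in the side difference between diets. Limma turned Lifr in right against sham DRG (0.06). The replicate block changed no call in the left or right against sham comparisons. Without replicate 1 of the FOD groups, signs turned for Il6st in injury on FOD (0.05) and diet without injury (−0.07), Il6r (−0.10) and Stat3 (0.18) in diet without injury, Socs3 in the diet by injury difference (0.66) and right against sham DRG (0.28), and Il6r (0.34), Lifr (0.02), Osmr (−0.16) and Stat3 (−0.04) in the side difference between diets.

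Leaving out 1 library turned further signs, with these ranges. In diet without injury they were −0.07 to 0.22 (Il6st), −0.19 to 0.38 (Il6r), −0.58 to 0.07 (Osmr) and −0.22 to 0.17 (Stat3), and in injury on FOD −0.20 to 0.06 (Il6st). In the diet by injury difference they were −0.06 to 0.52 (Il6r), −0.80 to 0.18 (Lifr) and −0.56 to 0.30 (Socs3). Between sides they were −0.27 to 1.23 (Il6r on FOD), and in the side difference between diets −1.16 to 0.34 (Il6r, 0.09 without SOD-CCI replicate 1), −0.57 to 0.21 (Lifr), −0.16 to 1.45 (Osmr) and −0.04 to 0.41 (Stat3). In right against sham DRG they were −0.35 to 0.03 (Il6r), −0.34 to 0.13 (Lifr), −0.09 to 0.18 (Stat3) and −0.22 to 0.14 (Socs3). In the exact tests they were −0.20 to 0.24 and −0.05 to 0.14 (Lif against sham and right) and −0.32 to 0.82 (Il1b against right). Without the 3 sham libraries with most muscle markers, added after seeing the data, no member was called in any comparison of left DRG. The share of all genes called there is not given, so this is not a result about the members. Signs turned for Il6r (−0.04) in injury on SOD, Il6st (−0.11) in the injury mean, Il6st (−0.04) and Il6r (−0.28) in diet without injury, Lifr (0.16) in the diet by injury difference and Lif against sham (−0.16). The exact p of Il6 against sham was 0.00286 to 0.04 over all alternatives. Depth limits Lif and Tnf most.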
